A study of Mus musculus with 3 samples.

Results

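The RNA of cells cultured on a stiff surface of 64 kPa was compared with that of the same kind of cells on a very soft surface of 0.2 kPa. All genes were described whose mean over the libraries from 0.2, 8 and 64 kPa was at least 50 normalized counts, which were 11873 of the 56833 genes in the table. Reep1, with a mean of 50.1, was just inside that minimum and Gm16867, with a mean of 49.96, just outside it, at log2 ratios of -0.26 and -0.22.

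The cells came from ankle synovium, the tissue that lines the joint, of mice of the genotype Efhd1CreER; Ai9. In these mice a tamoxifen-dependent Cre recombinase under the control of the Efhd1 gene switches on tdTomato, a red fluorescent protein, so the design marks cells in which that promoter was active when Cre was induced, together with their descendants. Cells positive for tdTomato were sorted by flow cytometry and kept for 24 h on collagen-coated CytoSoft plates of 0.2 kPa, called soft, 8 kPa, called intermediate, or 64 kPa, called stiff. By its title the study is about the role of stiffness in turning telocytes, as the labels call these cells, into fibroblasts. The 3 cultures shared genotype, tissue, sort and medium, and no untreated or unstained culture belongs to the comparison. The purity of the sort, the tamoxifen schedule, the age and sex of the mice and the number of animals behind each culture are not given in the sources used here. Each level had 1 library and no replicate, so a difference between plates cannot be told apart from a difference between cultures, and no test was made.

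Cells sense stiffness by pulling on it. Integrins, clustered in focal adhesions, link the matrix to actin filaments, and myosin puts those filaments under tension. Tension lowers the pool of free actin monomers, which releases the MRTF cofactors of the transcription factor SRF, and it favours the nuclear entry of YAP and TAZ, the cofactors of TEAD factors. Fibroblasts in which these pathways are active can become myofibroblasts, contractile cells that make smooth muscle actin and lay down collagen in wounds and in fibrotic joints. Telocytes are interstitial cells with very long, thin processes, usually described by their shape and by CD34 and PDGFRA, with no single defining transcript.

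The soft library held 25487064 recovered reads, the intermediate one 28081600 and the stiff one 26474862, and between 20398 and 20667 genes had at least 1 read. The labelled cell type could be checked only in part. Pdgfra, a receptor of platelet-derived growth factor, had 5884 normalized counts at 0.2 kPa, 6298 at 8 kPa and 5118 at 64 kPa, and Cd34, a surface sialomucin, had 235, 242 and 318. Both were present in each library. Foxl1, a transcription factor of intestinal telocytes, had 238, 233 and 186 normalized counts. Kit, a receptor tyrosine kinase, was low at 42.0, 38.7 and 45.1, and the hedgehog target Gli1 lower still at 9.23, 11.3 and 8.20. Efhd1 itself was nearly absent, with 10, 5 and 3 reads, while the reporter tdTomato stood at 818 normalized counts at 0.2 kPa, 1193 at 8 kPa and 2668 at 64 kPa, a log2 ratio of stiff to soft of 1.70. Of the 10 telocyte markers 6 reached the minimum mean, 3 of them higher and 3 lower in the stiff library, with a median log2 ratio of 0.12.

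Markers of other cells were measured beside them. All 16 described macrophage markers of 18 listed were higher in the stiff library, and 12 were higher by a log2 ratio of at least 1, against 51.1% of all described genes above 0 and 3.22% higher by 1. The summed level of all 18 was 32067 normalized counts at 0.2 kPa, 40089 at 8 kPa and 70499 at 64 kPa. None of the 18 was without a read, although Cd163, a scavenger receptor of resident macrophages, had only 2.05, 4.71 and 9.23 normalized counts. None of the 8 B cell and erythroid markers had a read in any library, which allows each up to 3.08 normalized counts at 64 kPa. The T cell and cytotoxic markers Cd3e, Gzma and Prf1 had no read, whereas Mcpt8, a basophil protease, had 1134 normalized counts at 0.2 kPa, 759.8 at 8 kPa and 742 at 64 kPa. The granzyme genes Gzmd and Gzme, whose near-identical transcripts make their separate counts uncertain, had 303, 151 and 199 (log2 ratio -0.61) and 1343, 882 and 947 (-0.50). Endothelial identity genes were near 0, with Cdh5 at 5.13, 2.83 and 0 and Pecam1 at 12.3, 12.3 and 4.10, but the adhesion molecule Esam had 78.9, 86.7 and 280.0, a log2 ratio of 1.81. The skeletal muscle factors Myod1 and Myog stayed at or below 12.3 normalized counts, and the keratins Krt14 and Krt15 of keratinocytes had no read. All 8 keratinocyte markers, 2 of them described, summed to 151, 120 and 144. Mural (vessel wall) cell markers, 5 of 8 described, summed to 2540, 3443 and 3295. Of those 5, 2 were higher and 3 lower, with a highest ratio of 0.86. Schwann cell markers, 3 of 8 described, summed to 1005, 1065 and 1163, 2 higher and 1 lower, with a highest ratio of 1.22. In bulk RNA, fewer cells of a type and less RNA per cell cannot be told apart.

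**Figure D1:**
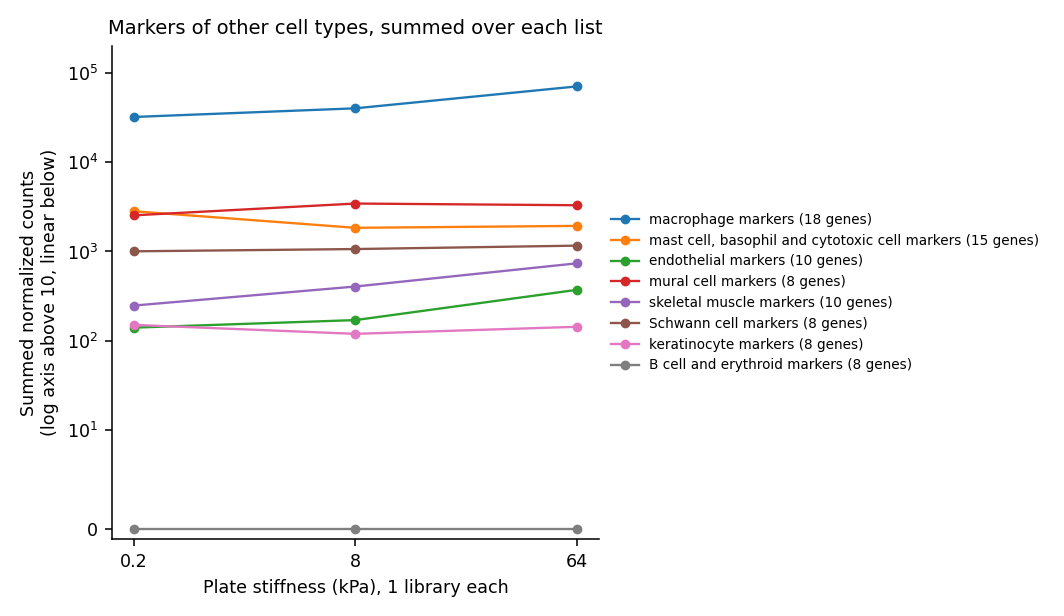
Summed normalized counts of the markers of 8 other cell types on each plate, 1 point per library, on an axis that is logarithmic above 10 and linear below. The macrophage sum goes from 32067 at 0.2 kPa to 70499 at 64 kPa, and the B cell and erythroid sum is 0 on each plate.

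Ratios were taken as log2 of the stiff over the soft value after adding 1 normalized count to each, and a gene was counted as higher or lower from a log2 ratio of 1, which is a 2-fold difference. Of the 11873 genes 428 passed, or 3.6%, of which 382 (3.22%) were higher and 46 (0.387%) were lower at 64 kPa. The median of all genes was 0.0049, the middle 50% of genes lay between -0.16 and 0.23, and the lowest and highest 1% began at -0.78 and 1.30. The 95% counting interval of the ratio excluded 0 for all 428, which a mean of at least 50 and a 2-fold difference make nearly certain in advance. That interval holds reading error only and none of the variation between cultures. The upper side was longer than the lower one at 0.5 as well, with 1402 genes against 448. Ratios past the threshold were more frequent among low genes: 8.20% of the 963 genes with a mean of 50 to 100 passed upward, against 1.70% of the 3177 genes with a mean of 1000 to 3000. Downward these shares were 1.45% and 0%.

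**Figure D2:**
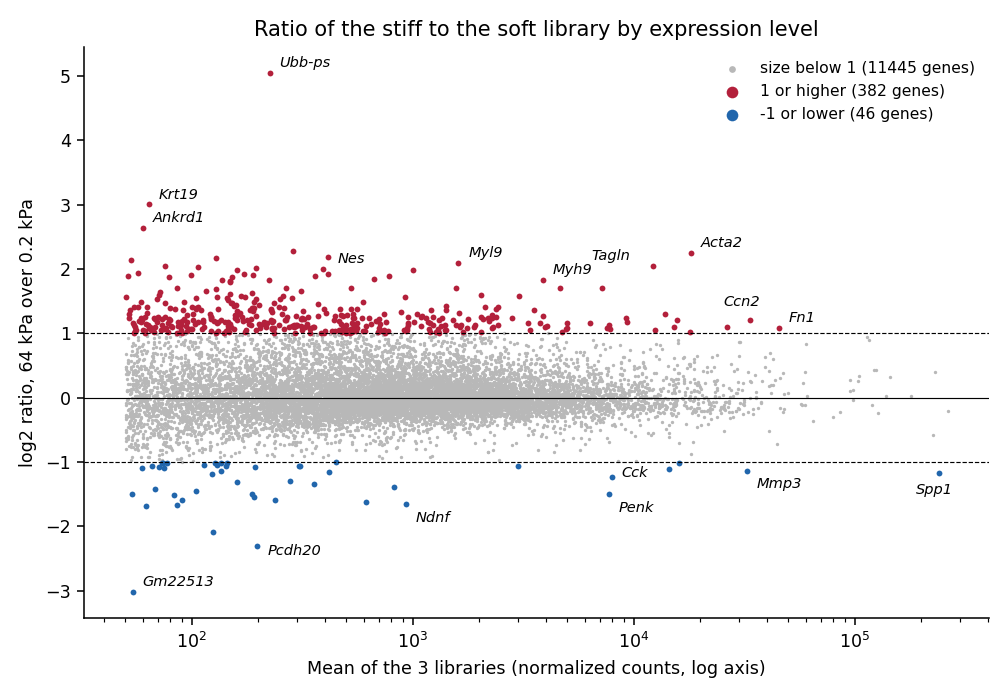
Log2 ratio of the stiff to the soft library (vertical axis) against the mean of the 3 libraries (horizontal, log axis), 1 point per gene for the 11873 genes, with dashed lines at 1 and -1. The 382 genes above the upper line are shown in red and the 46 below the lower line in blue, and Acta2 and Tagln lie apart from other genes of similar level at 2.24 and 2.04.

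Genes of the contractile apparatus of smooth muscle were 6 of the 15 with the highest ratios among named genes with a mean of at least 100. All 16 described genes of 20 listed were higher in the stiff library, 7 of them by at least 1 against 3.22% of all genes, and their median was 0.81. Acta2, which encodes smooth muscle alpha-actin, the classical myofibroblast marker, lies at chr19:34217737-34232990 (minus strand) in GRCm39. It had 7779 normalized counts at 0.2 kPa, 10080.3 at 8 kPa and 36823 at 64 kPa, a 4.73-fold difference between the ends (log2 ratio 2.24, counting interval 2.21 to 2.28). The intermediate value was closer to the soft one, and most of the difference lay between 8 and 64 kPa. The summed macrophage markers were highest in the same library, and the part of macrophages or mural cells in these ratios was not tested.

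Tagln, Myl9, Cnn1, Lmod1 and Actg2 likewise had most of their difference between 8 and 64 kPa. Tagln, which encodes the actin-binding protein transgelin, had 5672 normalized counts at 0.2 kPa, 7600.1 at 8 kPa and 23402 at 64 kPa, a log2 ratio of 2.04 (2.00 to 2.09). Myl9, the regulatory light chain of smooth muscle myosin, had 751, 854 and 3216 (ratio 2.10, 1.98 to 2.22). Cnn1, the gene of calponin, which restrains actomyosin, had 409, 423 and 1519 (1.89, 1.73 to 2.06). For Myl9 and Cnn1 the values at 0.2 and 8 kPa were nearly alike and the value at 64 kPa stood alone. Lmod1, a nucleator of actin filaments, was much lower, at 56.4, 71.6 and 258, with a ratio of 2.18 and a wider interval of 1.77 to 2.64. Actg2, the gamma-actin of enteric smooth muscle, had 123, 132 and 602 (2.28). Tpm2, a tropomyosin that stiffens the actin filament, was the seventh past the threshold, with 3393, 3964 and 6906 and 1.02.

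Other parts of the apparatus differed less. The myosin light chain kinase Mylk had 682, 590.1 and 1189 (ratio 0.80), the cytoskeletal protein Smtn 887, 1260.4 and 1557 (0.81) and Tpm1 10553, 10586 and 16513 (0.65). Cald1, a caldesmon found in most cells, was highest among them in counts and nearly level, at 28528, 28380.1 and 31481 (0.14). Genes of the mature smooth muscle cell were low: Myh11, its myosin heavy chain, had 7.18, 6.60 and 10.3 normalized counts, Myocd, the SRF cofactor of that lineage, 2.05, 0 and 3.08, and Pln, a regulator of the calcium pump, no read. Ratios were also taken after removing their dependence on transcript length and on GC content over all genes. On that scale the median of the 16 genes was 0.74 and the ratio of Acta2 2.29.

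**Figure D3:**
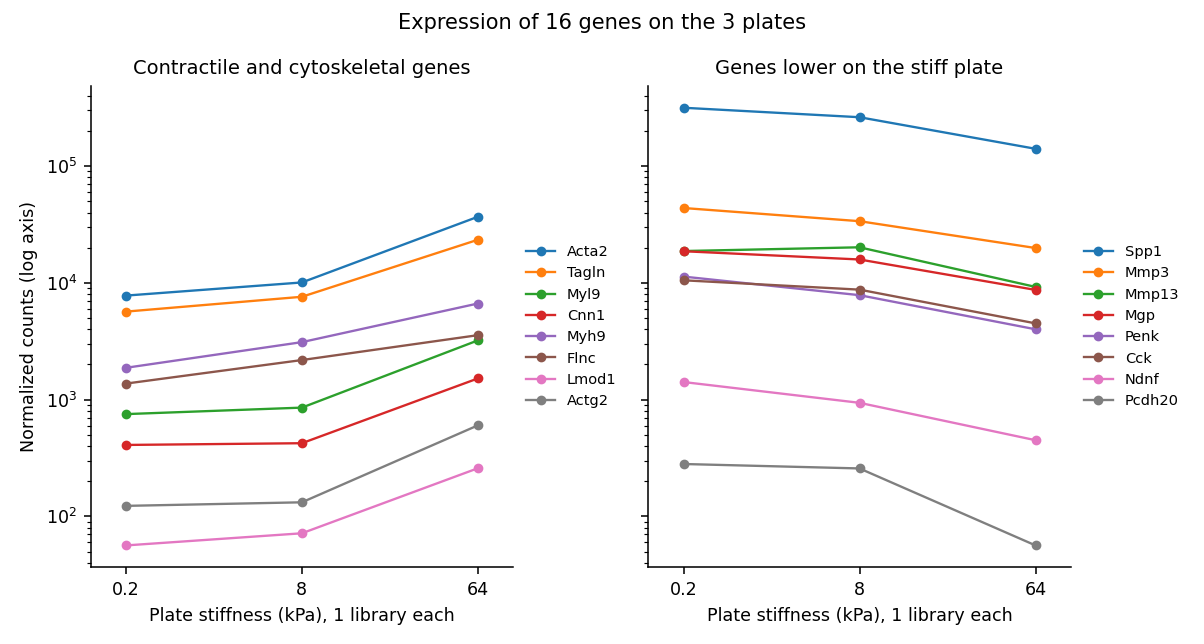
Normalized counts (log axis) of 8 contractile and cytoskeletal genes and of 8 genes that were lower on the stiff plate, at 0.2, 8 and 64 kPa, 1 library each, with lines joining the points of a gene. Acta2 goes from 7779 to 36823 and Spp1 from 316083 to 140702, and for Cnn1, Myl9 and Pcdh20 the points at 0.2 and 8 kPa are almost level.

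Actin isoforms can be set beside each other per kilobase of transcript. The 6 actin genes share most of their coding sequence, so reads may have been assigned across them and the split is uncertain. Actb, the main non-muscle actin, had 24587 normalized counts per kilobase at 0.2 kPa and 43829 at 64 kPa, and Actg1, the other non-muscle form, 15621 and 25185. Acta2 had 2790.2 and 13208. By this measure Acta2 made up 6.46% of actin signal at 0.2 kPa, 8.02% at 8 kPa and 15.9% at 64 kPa, while the share of Actb was 56.9%, 57.2% and 52.8%. All 5 isoforms other than the cardiac Actc1 were higher at 64 kPa. Acta1, the skeletal muscle form, had 168, 297 and 622 normalized counts, a ratio of 1.88, in cells with almost no Myod1 or Myog. Actc1 had at most 3 reads in any library.

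Promoters were read for these genes because SRF binds the CArG box and TEAD factors bind GGAATG. The sequences are those of RefSeq for GRCm38.p6, from 250 bases before to 50 after the start of transcription, and motifs were searched on both strands. Of the 16 contractile genes 14 had a window, all but Tagln and Actg2, and 8 of the 14 (57.1%) held GGAATG in either direction, against 1313 of 9326 (14.1%) among all described genes and 54 of 289 (18.7%) among genes higher by at least 1. Of these 8, Acta2 and Lmod1 passed the threshold, and Smtn, Mylk, Hspb1, Tpm1, Mustn1 and Cald1 lay between 0.81 and 0.14. The CArG box was in 2 of the 14, Myl9 and Myl6 (ratio 0.24). It was in 149 of all 9326 (1.60%) and in 11 of the 289 (3.81%). Among genes lower by at least 1 it was in 0 of 25 windows. Only the strict form of the CArG box was counted, CC and GG around a run of A or T alone. Elements with a mismatch were not, such as ccctatatgg in the Acta2 window printed below, and others may be present. The list is short and its members were chosen with results of these data known, so the shares are a description, and a match is not a bound site. Printed here are Acta2 (chr19:34255324-34255623, minus strand) and Lmod1 (chr1:135324563-135324862, plus strand), with GGAATG in capitals from bases -146 and -130 before the start, and Myl9 (chr2:156775214-156775513, plus strand), with its CArG box in capitals from base -161. No matched stretch overlapped another in these windows.
Acta2: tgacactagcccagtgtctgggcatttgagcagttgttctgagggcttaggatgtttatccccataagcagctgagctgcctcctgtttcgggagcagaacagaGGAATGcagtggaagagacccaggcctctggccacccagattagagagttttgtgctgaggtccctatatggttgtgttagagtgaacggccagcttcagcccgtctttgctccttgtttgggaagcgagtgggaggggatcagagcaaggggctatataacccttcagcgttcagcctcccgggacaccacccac
Lmod1: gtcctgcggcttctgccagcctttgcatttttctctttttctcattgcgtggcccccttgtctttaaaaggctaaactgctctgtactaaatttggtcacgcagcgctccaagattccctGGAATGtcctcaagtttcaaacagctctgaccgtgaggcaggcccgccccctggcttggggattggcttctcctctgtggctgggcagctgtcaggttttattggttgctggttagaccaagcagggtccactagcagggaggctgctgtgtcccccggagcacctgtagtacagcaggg
Myl9: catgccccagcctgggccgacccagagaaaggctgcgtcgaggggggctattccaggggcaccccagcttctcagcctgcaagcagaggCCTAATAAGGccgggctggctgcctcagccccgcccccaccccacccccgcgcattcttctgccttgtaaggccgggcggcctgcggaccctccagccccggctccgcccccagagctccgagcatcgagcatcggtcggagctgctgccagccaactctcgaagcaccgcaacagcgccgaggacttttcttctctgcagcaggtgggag

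The non-muscle cytoskeleton, which all adherent cells use to pull, was higher too. Of 20 described genes 18 were higher in the stiff library, 4 of them by at least 1, with a median of 0.52. Over all genes 51.1% were higher and 3.22% higher by at least 1. Myh9, the heavy chain of non-muscle myosin IIA and the main motor of stress fibres, had 1873 normalized counts at 0.2 kPa, 3107 at 8 kPa and 6656 at 64 kPa, a log2 ratio of 1.83 (1.75 to 1.90). Flnc, a filamin, which crosslinks actin and ties it to integrins, had 1372, 2182 and 3565 (ratio 1.38). Here the intermediate values were well above the soft ones, whereas those of Cnn1 and Myl9 were close to them. The crosslinker Actn1 had 6176, 7677 and 13989 (1.18). Small monomer-binding proteins differed less, though each ratio was above the 0.23 under which 75% of all genes lay. Cfl1, the gene of cofilin, had a ratio of 0.42, Pfn1, the gene of profilin, 0.49 and Tmsb4x, the gene of thymosin beta-4, 0.26. These last transcripts are short and that of Myh9 is long, and after subtraction of the length and GC trend Myh9 was at 1.18 and Flnc at 0.53.

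SRF, its MRTF cofactors and early targets were described as 12 genes, of which 11 were higher (51.1% of all genes were), 2 by at least 1 (3.22% of all genes), with a median of 0.71. Srf had 1417, 1425 and 2172 (ratio 0.62), Mrtfa 979, 1369 and 1799.8 (0.88) and Mrtfb 247, 388 and 433 (0.81). The largest ratio among them was that of Fhl1, a LIM-domain protein of the muscle sarcomere, at 355 normalized counts at 0.2 kPa, 373 at 8 kPa and 1281 at 64 kPa (1.85, 1.68 to 2.03). Zyx, the gene of zyxin, which moves to strained stress fibres, had 5245, 6387 and 11503 (1.13), and Vcl, the gene of vinculin, 5243, 5786 and 9290.0 (0.83). Fhl1 kept to the pattern of the contractile genes, with close values on the softer plates. Anxa1, an annexin, was the 1 gene slightly lower, at -0.09.

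Integrins and focal adhesion proteins were 25 higher and 4 lower of 29 described, 3 past the threshold, all upward, with a median of 0.34, against 51.1% of all genes higher and 3.22% past it upward. Tln1, the gene of talin, which couples integrins to actin and unfolds under load, had 1415 normalized counts at 0.2 kPa, 2152 at 8 kPa and 3745 at 64 kPa (ratio 1.40, but 0.68, under the threshold, after subtraction of the length and GC trend). Palld, the gene of palladin, a scaffold of stress fibres, had 2214, 2726 and 5673 (1.36). The third was Itga4, with 30.8, 48.1 and 76.9 (1.29), an integrin chain also made by leukocytes, whose markers were higher in the same library. Collagen receptors were among the higher ones, with Itga11 at 669, 979 and 1329 (0.99) and Itga1 at 247, 297 and 386 (0.64). The common beta chain Itgb1 was nearly level at 38397, 41186 and 43355 (0.18). The largest lower value was that of Itgb3, the beta chain of the vitronectin receptor, at 4192, 4484 and 2377 (-0.82). Its partner Itgav was at 0.53, so the chains of that receptor differed in opposite directions.

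Of 25 described genes of the Hippo pathway and targets of YAP and TAZ, 19 were higher and 6 lower, 4 of them higher by at least 1 (3.22% of all genes), with a median of 0.39 that was 0.18 after subtraction of the length and GC trend. The cofactors themselves were not among them: Yap1 had 5438, 5289.5 and 5353 (ratio -0.02) and Wwtr1, the gene of TAZ, 9241, 8978 and 7450.3 (-0.31), and their activity is set by location, which RNA does not measure. The DNA-binding partner Tead1 had 1844, 2220.1 and 3683, just under the threshold. The other lower members were Tead2 (-0.22) and the kinase pathway genes Stk3, Sav1 and Mob1a, between -0.21 and -0.02. Ccn2, the gene of connective tissue growth factor, had 23626 normalized counts at 0.2 kPa, 22575 at 8 kPa and 54585 at 64 kPa (1.21, 1.19 to 1.23), and Ccn1, a related matrix protein, 12272, 12518 and 22746 (0.89). F3, the gene of tissue factor, had 700.2, 625 and 1534 (1.13) and the feedback regulator Amotl2 2416, 2753 and 4998 (1.05). Ankrd1, a nuclear ankyrin-repeat protein much used as a YAP readout, was low, at 22.6, 12.3 and 146 normalized counts, but with the largest ratio of the list, 2.64 (2.04 to 3.41). For Ccn2, F3 and Ankrd1 the intermediate value was below the soft one, and the stiff library alone was high.

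Matrix genes form a further part of the myofibroblast programme. All 8 described fibrillar collagens were higher, against 51.1% of all genes, and 2 by at least 1, against 3.22%, with a median of 0.61. Col1a1 and Col1a2 encode the chains of type I collagen, the main fibre of connective tissue. Col1a1 had 78648 normalized counts at 0.2 kPa, 110715 at 8 kPa and 151834 at 64 kPa (ratio 0.95), and Col1a2 85022, 96093 and 103158 (0.28), so the chains of 1 fibril did not differ alike. Col5a1, whose product starts type I fibrils, had 8242, 13131 and 20334 (1.30), and Col3a1, the chain of thin reticular fibres, 34634, 37796 and 41354 (0.26). Col2a1, the collagen of cartilage, was low, at 209, 329.9 and 576 (1.46). In this group each intermediate value lay between the ends. After subtraction of the length and GC trend Col1a1 was at 0.42, Col5a1 at 0.53 and Col1a2 at 0.01, and the median of the 8 was 0.38.

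Among 15 other collagens 12 were higher and 3 lower, with a median of 0.47 that was 0.10 after subtraction of the trend. Of all genes 51.1% were higher, 3.22% passed upward and 0.387% downward. Col4a2 of the basement membrane passed upward (3201, 5030.3 and 6787, ratio 1.08, and 0.33 after that subtraction), and the transmembrane collagen Col23a1 passed downward (167, 185 and 82.0, -1.02). Matrix glycoproteins were 23 higher and 4 lower of 27, with 4 past the threshold upward (3.22% of all genes) and a median of 0.46 that was 0.18 after subtraction. Fn1, the gene of fibronectin, the first fibre cells lay down, had 28877 normalized counts at 0.2 kPa, 46177 at 8 kPa and 61089 at 64 kPa (1.08). Hspg2, the gene of perlecan, a very large basement membrane proteoglycan, had 3313, 7266 and 10836 (1.71), and Ltbp2, a fibrillin-binding protein, 8001, 12841 and 16555 (1.05). Fndc1, a fibronectin-domain protein, was low, at 46.1, 83.9 and 191, with the highest ratio of the list, 2.02. Hspg2, Fn1 and Ltbp2 were at 0.52, 0.45 and 0.43 after subtraction of the trend, under the threshold. Sparc, a collagen-binding protein, was level at 179007, 177439 and 182698 (0.03, and lower than 0 when libraries were scaled by total reads or upper quartile), and Thbs2, the gene of an anti-angiogenic thrombospondin, was lower at 16140.5, 16782 and 10534 (-0.62).

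Proteoglycan and hyaluronan genes were mixed, with 11 of 18 higher, 7 lower and a median of 0.08, which was -0.03 after subtraction of the trend. Prelp, a leucine-rich proteoglycan of cartilage and basement membrane, had 18637, 23444 and 29546 (ratio 0.66) and Prg4, the gene of the joint lubricant lubricin, 3742, 4311 and 5770.5 (0.62). Hapln1, the link protein that binds aggrecan to hyaluronan, passed downward, at 178, 124 and 86.1 (-1.04), and the hyaluronan synthase Has2 had 7557, 8099.7 and 5360.3 (-0.50). Of 16 collagen crosslinking and processing enzymes 14 were higher, none by 1, with a median of 0.27 that was 0.16 after subtraction of the trend. Lox, which crosslinks collagen and elastin, was abundant on all plates (129253, 142120 and 161274, 0.32), and its relative Loxl2 had 2908, 3355 and 4594 (0.66).

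Matrix-degrading enzymes and their inhibitors were mixed, with 12 of 22 higher, 10 lower and a median of 0.02. Mmp3, the gene of stromelysin, which cuts proteoglycans and activates collagenases, had 43770.3 normalized counts at 0.2 kPa, 33751 at 8 kPa and 19886 at 64 kPa (ratio -1.14, -1.16 to -1.11). Mmp13, the interstitial collagenase of rodents and a main enzyme of joint erosion, had 18731, 20166 and 9233 (-1.02), so its value at 8 kPa was not below that at 0.2 kPa. These were the only members of the list to pass the threshold, against 0.387% of all genes downward. Several other secreted metalloproteinases were lower by less than 1, with Mmp9, a gelatinase, at 917, 769 and 479 (-0.93), Mmp10, a stromelysin, at 1139, 912 and 601 (-0.92) and Mmp11 at 2724, 2298 and 1517 (-0.84). The membrane-bound Mmp14 was level at 6933, 7577 and 7033 (0.02), and Mmp2, which it activates, was at 0.16. Mmp12, the macrophage elastase, was higher, at 22635, 31817 and 35563 (0.65), beside the macrophage markers, whose part in it was not tested.

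Inhibitors of the metalloproteinases and the plasminogen activators had no common direction. The tissue activator Plat had 3318 normalized counts at 0.2 kPa, 3094 at 8 kPa and 1982 at 64 kPa (ratio -0.74), while the urokinase gene Plau had 3253, 4038 and 4547 (0.48). Timp3 and Timp2, inhibitors of metalloproteinases, had 14496, 13446 and 22164 (0.61) and 18432, 20893 and 28681 (0.64), and the more abundant Timp1 was at -0.25. Timp3 stood out in the stiff library alone, whereas Plau and Timp2 were higher at each step.

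Promoters of the metalloproteinases are shown because AP-1, the factor made of Fos and Jun proteins that drives them in inflamed joints, binds TGANTCA, in which N is any base. The motif, searched on both strands, was in 6 of 25 windows (24%) of genes lower by at least 1, in 19 of 289 (6.57%) of those higher and in 604 of 9326 (6.48%) of all. The 6 were Mmp3, Mmp13, Slitrk6, Olr1, Mlf1 and Plaat1. TTTGAA, the CHR element of cell cycle genes, was also in 6 of the 25 (24%), though not in the same set of genes, in 41 of 289 (14.2%) and in 1329 of all 9326 (14.3%). Mmp3 (chr9:7445572-7445871, plus strand) and Mmp13 (chr9:7272264-7272563, plus strand), also from RefSeq for GRCm38.p6, hold TGANTCA in capitals from bases -46 and -35 before the start.
Mmp3: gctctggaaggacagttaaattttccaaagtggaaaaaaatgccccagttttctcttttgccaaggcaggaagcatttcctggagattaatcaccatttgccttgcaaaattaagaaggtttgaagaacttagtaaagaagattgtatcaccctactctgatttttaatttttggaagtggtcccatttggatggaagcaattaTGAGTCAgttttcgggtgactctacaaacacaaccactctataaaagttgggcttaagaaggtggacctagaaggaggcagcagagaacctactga
Mmp13: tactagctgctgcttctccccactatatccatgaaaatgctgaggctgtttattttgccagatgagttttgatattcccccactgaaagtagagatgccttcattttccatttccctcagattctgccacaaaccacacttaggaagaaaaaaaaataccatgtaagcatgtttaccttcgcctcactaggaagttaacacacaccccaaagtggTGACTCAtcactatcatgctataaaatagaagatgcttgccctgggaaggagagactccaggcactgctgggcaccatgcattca
Among the AP-1 genes, Fos had 660.2, 909.7 and 1153 (ratio 0.80), Fosl1 2204, 2639.6 and 3162 (0.52) and Jun 2936, 3561 and 3647 (0.31), each higher at 64 kPa than at 0.2 kPa. Of 22 immediate early genes 16 were higher and 6 lower, none by 1, with a median of 0.25. Several had their highest value at 8 kPa, among them Fosb (155, 461 and 140.5) and Egr3 (1324, 2495 and 856), whose stiff values were close to or below the soft ones.

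Among the lower genes, Spp1 held the most RNA. It encodes osteopontin, a secreted phosphoprotein of bone, macrophages and injured stroma, at chr5:104582165-104589235 (plus strand) in GRCm39, and had 316083 normalized counts at 0.2 kPa, 262242 at 8 kPa and 140702 at 64 kPa (log2 ratio -1.17, -1.18 to -1.16). Of all reads it took 1.21% at 0.2 kPa (95% Wilson interval 1.21 to 1.21), 0.991% at 8 kPa (0.987 to 0.994) and 0.518% at 64 kPa (0.516 to 0.521). It was thus lower in steps over the plates while macrophage markers were higher. Mgp, the gene of matrix Gla protein, an inhibitor of calcification, had 18662, 15857 and 8702 (-1.10), and Sp7, the osteoblast factor osterix, 1407, 1501 and 749.6 (-0.91). Alpl, the phosphatase of mineralizing cells, was higher, at 747, 944 and 1269 (0.76), so bone-type genes did not share a direction.

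Genes better known from neurons and endocrine cells were several of those with the lowest ratios. Pcdh20, a protocadherin, had the lowest ratio of the named genes: 281 normalized counts at 0.2 kPa, 257 at 8 kPa and 56.4 at 64 kPa, or -2.30 (-2.76 to -1.89). Its values at 0.2 and 8 kPa were alike. Nnat, an imprinted gene of a small membrane protein, had 199.9, 126 and 46.1 (-2.09), and Ndnf, the gene of a secreted neurotrophic factor, 1415, 939 and 449 (-1.65). Both were lower at each step. The peptide precursors Penk, of enkephalins, and Cck, of cholecystokinin, were abundant: Penk had 11316 normalized counts at 0.2 kPa, 7845 at 8 kPa and 4004 at 64 kPa (-1.50) and Cck 10520.5, 8748 and 4499.9 (-1.23). Nptx1, a synaptic pentraxin, and Slitrk6, a neurite-shaping membrane protein, had 787, 793 and 255 (-1.62) and 301, 316 and 99.5 (-1.59). In the list of 22 guidance and neural-type genes, into which several of these had been placed with earlier results known, 5 were lower by at least 1, against 0.387% of all genes, and 1, Sema3e (170.2, 172 and 363, 1.09), was higher. The median of the list was 0.21, and 0.01 after subtraction of the length and GC trend. The remaining 16, mostly semaphorins, slits, netrins and their receptors, lay between -0.18 for Slit2 and 0.99 for Slit3.

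Other members of the 15 lowest were Adcy1, an adenylyl cyclase (233, 245 and 82.0, ratio -1.49, and -2.29 after subtraction of the length and GC trend), Tcim (-1.46), Baalc (1066, 982 and 408, -1.38), Megf10, an engulfment receptor (446, 453 and 175, -1.34), the carboxypeptidase Cpm (-1.31), the immunoglobulin-family protein Cd200 (-1.18), which restrains myeloid cells, and Bcl6b (-1.16). For Adcy1, Baalc and Megf10 the soft and intermediate values were close and the stiff one was low. In normalized counts, and leaving out mitochondrial genes, the largest differences downward after Spp1 were those of Rn18s-rs5, a ribosomal RNA copy, of a kind that the mRNA selection of the kit is meant to remove (254239, 253173 and 169245, -0.59), the elongation factor Eef1a1 (-0.20), Mmp3, Timp1, Il1rl1, the receptor of interleukin-33 (50181, 52730.2 and 30591, -0.71), Tpt1 (-0.30), Nqo1 (-0.52), Rplp0 (-0.22) and Mgp.

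Lists of secreted signals and their receptors had medians closer to 0 than the cytoskeletal lists. Of 18 TGF-beta ligands, receptors and feedback genes 12 were higher and 6 lower, none by 1, with a median of 0.10 that was -0.01 after subtraction of the length and GC trend. The ligand Tgfb1 was level (5979.9, 7227 and 6097, ratio 0.03), Tgfb3 was at 987, 1132 and 1584 (0.68), and the co-receptor Eng, the gene of endoglin, at 1691, 1976 and 3062 (0.86). The inhibitory Smad7 was at 0.11. The 22 BMP and Wnt genes divided into 11 higher and 11 lower (median 0.0046), with the Wnt-inactivating enzyme Notum at 853, 803 and 456 (-0.90), the ligand Bmp2 at 314, 442 and 177 (-0.82) and the activin antagonist Fst at 6496, 6946 and 3716 (-0.81). The BMP target Id1 was at -0.54.

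The 26 growth factors and receptors also divided evenly, 13 and 13 (median 0.03), with 2 past the threshold upward, against 3.22% of all genes. Pdgfb, a chain of platelet-derived growth factor, was low and among these, with 41.0 normalized counts at 0.2 kPa, 58.4 at 8 kPa and 85.1 at 64 kPa (ratio 1.04). Among the lower members, Hgf, of hepatocyte growth factor, was at 3938, 3835 and 2664 (-0.56), Fgf7, of keratinocyte growth factor, at 16337, 15568 and 11152 (-0.55), and Igfbp5 at 5505, 4541 and 3062 (-0.85). The 21 chemokines and inflammatory mediators had a median of 0.02, and Tnf, low and made mainly by leukocytes, was the 1 past the threshold (54.3, 66.9 and 112, 1.03), against 3.22% of all genes. Il6 was at -0.32, Ccl2 at -0.09 and Cxcl12 at 4749, 5311 and 7729 (0.70). Interferon response genes were 14 lower and 4 higher of 18 (median -0.27), beside 5809 lower of all 11873 genes. Usp18 was at 434, 513 and 229 (-0.92) and Ifit3 at 436, 570.3 and 235 (-0.89). For both the value at 8 kPa was the highest and that at 64 kPa the lowest.

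Leukocyte genes formed a large block among the higher genes. Marco, a scavenger receptor of macrophages, had 170.2 normalized counts at 0.2 kPa, 316 at 8 kPa and 686 at 64 kPa (ratio 2.00), Stab1, another scavenger receptor, 467, 701 and 1849 (1.98, and 1.28 after subtraction of the length and GC trend), and Csf1r, the receptor on which macrophages depend, 1267, 1725 and 3359 (1.41). Dock2, Fmnl1 and Pld4, expressed mainly in blood-derived cells, and Acod1, the itaconate-making enzyme of activated macrophages, were among the 15 highest genes, at 1.98, 1.90, 2.01 and 1.93. Intermediate values differed among them: Dock2 had 63.6, 163 and 254, Fmnl1 84.1, 169 and 317. Acod1, at 86.1, 99.9 and 330.2, was close to its soft value at 8 kPa. Not all macrophage genes differed as much, since Cd14, the lipopolysaccharide co-receptor, had 1975, 2133 and 2449.9 (0.31) and the Fc receptor Fcgr1 330.1, 489 and 460.4 (0.48).

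To gauge the extent, a broad list of leukocyte genes was written after the values were seen, which bars any test of it. Of its 161 described members 109 were higher by at least 1 and 0 lower, with a median of 1.12, and they made up 28.5% of the 382 higher genes. Without the list 273 of 11712 genes, or 2.33%, were higher. The contractile genes, the collagens and the YAP targets named above are not on it. Lysosomal genes, which macrophages express strongly and other cells also use, were 14 higher and 5 lower of 19, with Psap at 31343, 38243 and 48447 (ratio 0.63) and Ctsd at 15339, 17468 and 23218 (0.60) highest and Lamp2 at -0.27 lowest. The part of leukocyte RNA in any of these groups was not tested.

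Long transcripts rich in G and C made up another block. Kmt2d, a histone H3 methyltransferase with 55 exons and a canonical transcript of 19826 bases, had 128 normalized counts at 0.2 kPa, 253 at 8 kPa and 420.5 at 64 kPa (ratio 1.71). The splicing protein Srrm2 had 778, 1350.0 and 2097 (1.43) and the acetyltransferase Crebbp 149, 249.8 and 366 (1.29). In a list of chromatin regulators written after the values were seen, which bars reading its count as a result, 19 of 49 were higher by at least 1, against 3.22% of all genes, and the median was 0.73, which was 0.24 after subtraction of the trend. Of its members 8 were lower, among them the deacetylase Hdac2 at -0.16, the Polycomb gene Ezh2 at -0.18 and Rbbp4 at -0.26. After the subtraction Kmt2d was at 0.28 and Srrm2 at 0.85.

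The trend ran through all genes. In 4 classes of equal size by length of the canonical transcript, the share of genes higher by at least 1 was 1.99% in the shortest, 2.44%, 2.64% and 5.80% in the longest, and by GC content it was 1.51%, 2.47%, 3.84% and 5.04%. The shares of lower genes were between 0.240% and 0.652% in all 8 classes. Higher genes had a median length of 4764 bases, a GC content of 53.2% and 13 exons, against 3485 bases, 50.1% and 9 exons over all 11658 annotated genes, and lower genes 3572 bases, 46.5% and 5 exons. When a local fit of the ratio over length and GC content was subtracted, 246 genes were higher, 215 of them among the 382, and 47 were lower, 31 of them among the 46. The contractile genes, Ccn2 and the median of the macrophage list kept nearly the same values (2.29 and 1.22 for Acta2 and Ccn2, and 1.21 for that median), whereas long matrix and cytoskeletal genes such as Hspg2, Fn1 and Tln1 came closer to 0. Other named genes that passed the threshold and were under it after the subtraction were Actn1, Zyx, Tpm2, Amotl2, Col2a1, Pdgfb and Crebbp among the higher ones and Mmp13, Mgp, Hapln1, Olr1, Mlf1 and Plaat1 among the lower ones. The part of RNA quality in the trend was not tested.

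**Figure D4:**
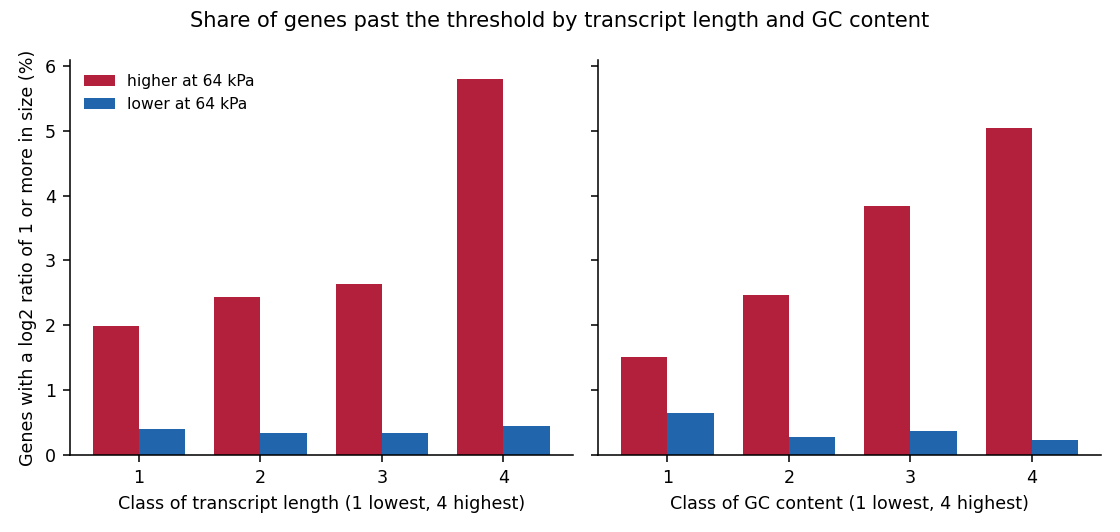
Percentage of genes with a log2 ratio of at least 1 upward (red) or downward (blue) in 4 equal classes of canonical transcript length and of GC content, from lowest to highest. The red bars go from 1.99% to 5.80% with length and from 1.51% to 5.04% with GC content, while no blue bar is above 0.652%.

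Housekeeping and growth programmes leaned slightly the other way. All 22 cytosolic ribosomal protein genes were lower in the stiff library (median -0.16, lowest Rps14 at -0.30), as were 18 of 20 nuclear genes of oxidative phosphorylation (median -0.15), 17 of 19 mitosis genes (median -0.25) and 18 of 20 DNA replication genes (median -0.14). Of all 11873 genes described 5809 were lower. No member of these 4 lists passed the threshold, which 3.6% of all genes did. Ccnb2, a mitotic cyclin, had 1154 normalized counts at 0.2 kPa, 1201 at 8 kPa and 724 at 64 kPa (ratio -0.67), and the replication clamp Pcna 5791, 5535 and 4581 (-0.34). The mitotic genes were as high at 8 kPa as at 0.2 kPa for Ccnb1 (2149.8, 2296 and 1728) and Top2a (2629.6, 3169 and 2759.6), and the cell cycle inhibitor Cdkn1a, a p53 target, had 14838, 15469 and 17367 (0.23). Ribosomal protein and respiratory transcripts are short, and after subtraction of the trend their medians were -0.04 and -0.05.

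Stress and metabolic genes were mostly higher by small amounts, beside 51.1% of all genes higher and 3.22% higher by at least 1. Of 16 genes of the integrated stress response and amino acid supply 14 were higher (median 0.39), with the factor Atf4 at 1615, 1896 and 2601 (ratio 0.69), its pseudokinase target Trib3 at 171, 192 and 307 (0.84) and the amino acid transporter Slc7a5 at 1218, 1435 and 2065 (0.76). Of 18 glycolysis and hypoxia genes 17 were higher (median 0.23), led by hexokinase Hk2 at 695, 868 and 1108 (0.67). The heat shock genes Hspa1a and Hspa1b passed the threshold (1.19 and 1.11), but they are near-identical copies and their separate counts are uncertain. Among 12 NRF2 targets the directions differed: Osgin1 had 64.6, 117 and 231 (1.82) and Hmox1, the gene of heme oxygenase, 23679, 23598 and 43112 (0.86), whereas Nqo1, a quinone reductase, had 46684, 43466 and 32455 (-0.52). The ferritin genes Fth1 and Ftl1 were among the 10 largest differences upward in normalized counts, at ratios of 0.41 and 0.43. Cholesterol and fatty acid genes had a median of -0.06, with Fasn at 0.74 and Hmgcs1 at -0.39 at the ends.

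Genes that mark fibroblast states and position differed little beside the contractile ones. Of 11 progenitor fibroblast markers 9 were higher (median 0.23): Pi16, a marker of universal fibroblasts, had 189, 185 and 258 (ratio 0.45) and Creb5 109.7, 156 and 284 (1.36), the 1 past the threshold (51.1% of all genes were higher and 3.22% past it), while the matrix protein Dpt had 191, 163 and 127 (-0.58). Of 12 synovial lining and sublining markers 9 were higher (median 0.26), among them Prg4 of the lining and Thy1 of the sublining (9842, 9953 and 12741, 0.37). Adipocyte genes differed by less than 1, with Pparg at -0.16 and Adipoq at 1021, 997 and 778 (-0.39), and the tendon gene Tnmd was at 213, 141 and 117 (-0.86). Of 15 limb and positional factors 11 were lower (median -0.12). Prrx1, a mesenchymal homeobox factor, had 28679.6, 27843 and 19953 (-0.52), and the hindlimb factor Tbx4 was level at 717, 725 and 708 (-0.02).

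**Figure D5:**
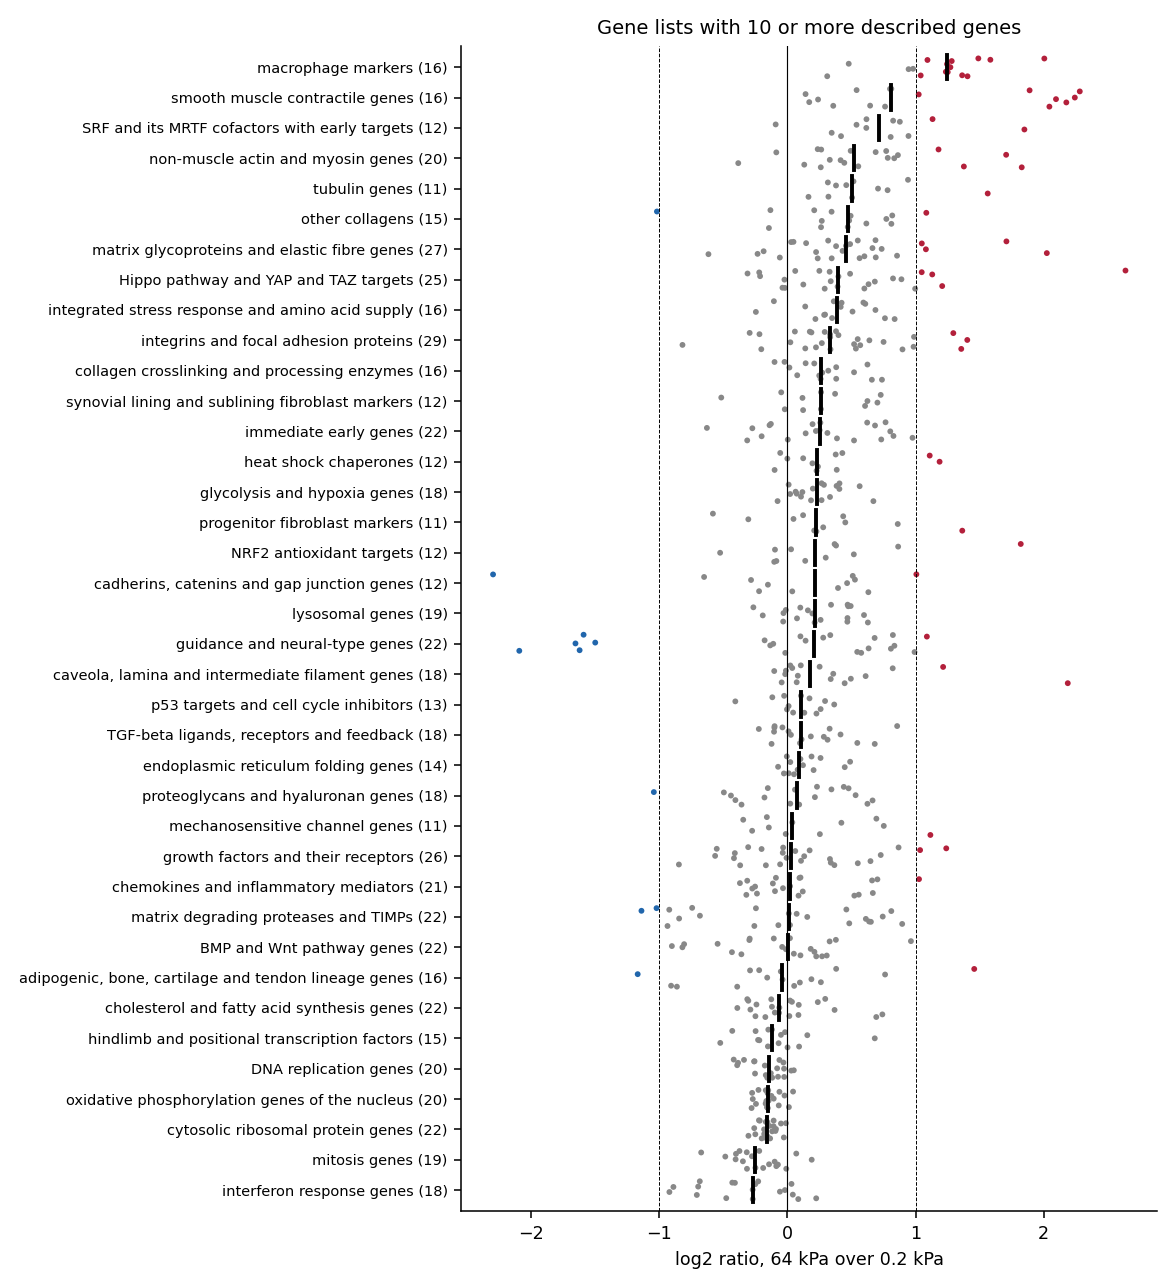
Log2 ratio of the stiff to the soft library for every described gene of the 38 lists with at least 10 such genes (their number in brackets), 1 point per gene, spread vertically for legibility, with a black bar at the median, red points at 1 or above and blue points at -1 or below. Macrophage markers (median 1.25) and smooth muscle contractile genes (0.81) have the highest medians and interferon response genes (-0.27) the lowest.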

How the data were processed

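RNA of the 3 cultures was sequenced after an mRNA-selecting, strand-marking library preparation, per the labels' protocols. The table deposited by the authors gives a signal per gene, read counts scaled by a size factor, with 1 column per library, and the 3 files deposited by the authors hold identical content. bcl2fastq 2.20.0, STAR 2.7.9a, featureCounts, Subread 2.0.1, DESeq2 1.34.0 and GRCm39 are listed, with no role or order, in the submitters' processing notes, and the annotation and counting settings are not given in the sources used here. All values were whole multiples of 1 read (100.0% within 0.001 of a whole number), worth 1.03, 0.943 and 1.03 normalized counts at 0.2, 8 and 64 kPa, which gave the reads per gene. A count test was not made, since no level had a replicate.

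Log2 ratios were computed with a pseudocount of 1 on the deposited scale. Counting intervals are 95% Clopper-Pearson intervals of the split of reads between both libraries, read shares have Wilson intervals, and a count of 0 was taken to allow up to 3 reads. They cover counting error only. Gene length, GC content and coordinates came from GENCODE vM39 (GRCm39) for 11658 genes, and a local linear fit over 300 neighbours was used for the trend. Genes named are the 15 highest and 15 lowest ratios with a mean of at least 100, the 10 largest differences in counts each way (unnamed gene models, pseudogenes and mitochondrial genes left out), Efhd1, tdTomato and members of 47 gene lists. Some genes that this rule names are not reported here. The members and lists were chosen with earlier results of these data known, and the leukocyte and chromatin lists were written after the values were seen. On simulated counts for this comparison 199 of 200 changed genes were recovered with 0 false calls among 11900 genes, and intervals covered 95.4% of true ratios. The changed genes were simulated well past the threshold and all other genes without any difference. The simulation held counting noise and no variation between cultures, so these counts follow largely from its settings. They do not cover genes close to the threshold. Alternatives were other pseudocounts, scalings, minimum means, thresholds and the length and GC fit. The software was scipy 1.17.1, matplotlib 3.10.9, pandas 2.3.3 and numpy 2.4.6 under Python 3.11.15.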

Additional observations from a re-analysis of the deposited data

How the results depend on the processing

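Every level of stiffness had 1 library, so no replicate could be left out, and no ratio has an error between cultures. No paired analysis was possible because each level had 1 library. The counts of genes depended on the choice of minimum and threshold. Without a minimum mean 5827 genes passed a log2 ratio of 1 (2932 higher, 2895 lower). A minimum of 10 gave 822 (595 and 227) and one of 200 gave 238 (221 and 17). A threshold of 0.5 gave 1850 (1402 and 448) and one of 2 gave 17 (14 and 3). Subtraction of the length and GC fit gave 293 genes, of which 246 were higher. The other settings kept the counts within 1.5 times: pseudocounts of 0.1 and 10 (430 and 365 genes), scaling by total reads (377), upper quartile (375), TMM (429) or median of ratios (419), leaving out mitochondrial, ribosomal protein and unnamed genes (410), and leaving out the leukocyte list (319), an alternative chosen after seeing the data. Total reads and upper quartile shifted all ratios by about -0.055 and -0.058, so a gene above 0 by less than that changes its side. The median of the TGF-beta list was -0.013 and that of the telocyte markers -0.026 under the length and GC fit, opposite in sign to those reported, and the cause was not tested. Of the other values of list medians over these settings 323 lay between the medians of their members' lower and upper counting bounds, and 43 lay outside. Those bounds are of single genes and are not an interval of the list median. Medians reported close to 0 also changed sign in some settings, those of the proteoglycan, protease, BMP and Wnt, growth factor, chemokine, channel and lineage lists. None of the 30 genes named for the size of their ratio changed sign under the scalings, pseudocounts and length and GC fit. For the scalings and pseudocounts this was certain in advance, because their shifts were smaller than those ratios. Genes with a mean near 50 rest on few reads, and their counting intervals are wide.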

Other observations

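Tubulin genes, whose products build microtubules, were all 11 higher in the stiff library (median 0.51, lowest 0.16 for Tubg1), against 51.1% of all genes. Tubb2b, a beta-tubulin of developing neurons, was the 1 past the threshold, against 3.22% of all genes. It had 534 normalized counts at 0.2 kPa, 655 at 8 kPa and 1580.3 at 64 kPa (log2 ratio 1.56). Of 18 genes of caveolae, the nuclear lamina and intermediate filaments 2 passed upward, against 3.22% of all genes. Nes, the gene of nestin, an intermediate filament of progenitor and remodelling cells, had 169 normalized counts at 0.2 kPa, 291 at 8 kPa and 774 at 64 kPa (2.19, counting interval 1.95 to 2.45), and Cavin2, a caveolar coat protein, had 1240.5, 1203 and 2882 (1.22). The caveolin Cav1 was level at -0.02 and lamin A, from Lmna, was at 0.34. Akap12, a scaffold of protein kinase A and the last of the 15 highest genes not yet described, had 199, 289 and 757 (1.92).

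Channels opened by membrane tension had a median of 0.04 over 11 genes. Piezo1 had 5425, 7549 and 9140.3 (0.75) and Trpv2 399, 577 and 866 (1.12), while Piezo2 was at -0.34 and Trpm7 at -0.16. Among cadherins and junction genes, 7 of 12 were higher and 5 lower. Cdh11, the cadherin by which synovial fibroblasts adhere, was lower, at 7319.8, 6772 and 4666 (-0.65), and Cdh2 was higher, at 1476, 1802 and 2039.7 (0.47). Jup, the gene of plakoglobin, passed the threshold upward at 242, 302 and 487 (1.01), and Pcdh20 passed it downward (-2.30). Of all genes 3.22% passed upward and 0.387% downward.

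The following genes were chosen after their values were seen. Krt19, a keratin of simple epithelia, had 17.4, 27.3 and 147 normalized counts (3.00) in libraries without Krt14 or Krt15 reads. The pseudogene Ubb-ps had the highest ratio of all, 5.04, but its reads cannot be told apart with certainty from those of Ubb. The small RNA gene Gm22513 had the lowest, -3.02, at 73.8, 80.1 and 8.20.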
